A study of Mus musculus with 4 samples.

Results

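The genes described here are 35 genes that mark microglia or encode their receptors, read from the cervical spinal cord of NC/Nga mice raised so that they do or do not develop atopic dermatitis. They were taken as every probe of the array whose annotated symbol is one of the 35 names. That gave 65 of the 45281 probes, for 34 of the 35 genes. Cd68 is named by no probe in the annotation used here and was not analysed. A probe counted as above background where its detection p was under 0.05, and it was kept where that held on at least 2 of the 4 arrays. Of the 65 probes, 42 were kept, for 31 genes. Each gene is represented by its kept probe with the highest mean, and 10 genes had several kept probes.

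The conventional (CV) group is male NC/Nga mice, 9 weeks old, kept under conventional conditions and labelled as having atopic dermatitis, with 2 arrays. The SPF group is male NC/Nga mice of the same age, kept specific-pathogen-free and labelled as normal, also with 2 arrays. Mice of this inbred strain develop dermatitis in conventional housing. Nothing in the labels says whether an array holds 1 animal or a pool, so p-values measure only the spread between these samples, which may be technical. Array depth was even: 20689 and 20960 probes were above background on the CV arrays, against 20493 and 20334 on the SPF arrays.

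Microglia are the resident macrophages of the central nervous system, and in the spinal cord they respond to injury and to activity in sensory nerves. In their resting state they carry a set of surface receptors that sense their surroundings: the fractalkine receptor CX3CR1, purine receptors such as P2RY12, and the growth factor receptor CSF1R, on which their survival depends. A separate set of receptors signals through small adaptor proteins that bear an immunoreceptor tyrosine-based activation motif and recruit the kinase SYK. TREM2, a lipid-sensing receptor, uses the adaptor encoded by Tyrobp, and activating Fc receptors, which bind antibody complexes, use the adaptor encoded by Fcer1g. The transcription factor PU.1, encoded by Spi1, is required to form these cells and binds purine-rich sites with the core GAGGAA.

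Because PU.1 is required to form microglia, the promoters of 4 receptor genes are shown as they stand in RefSeq (GRCm38.p6). Each covers the 250 bases before the annotated start, written 5′ to 3′ on the strand of the gene. Whether PU.1 regulates each member was not tested. Capitals mark GAGGAA or its reverse complement TTCCTC. Trem2, P2ry13 and Fcgr1 are shown because each holds the core close to its start, and Cx3cr1 because it holds none.
Trem2, chr17:48346151-48346400, plus strand: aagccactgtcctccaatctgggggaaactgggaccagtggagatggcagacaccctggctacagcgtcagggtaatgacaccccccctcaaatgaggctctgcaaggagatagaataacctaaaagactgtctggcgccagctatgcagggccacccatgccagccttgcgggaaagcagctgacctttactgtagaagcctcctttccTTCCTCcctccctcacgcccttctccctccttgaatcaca
P2ry13, chr3:59210883-59211132, minus strand: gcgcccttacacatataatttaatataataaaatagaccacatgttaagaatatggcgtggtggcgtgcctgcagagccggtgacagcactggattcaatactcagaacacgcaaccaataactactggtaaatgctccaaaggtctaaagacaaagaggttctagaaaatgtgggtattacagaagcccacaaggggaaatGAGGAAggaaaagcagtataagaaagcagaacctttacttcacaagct
Fcgr1, chr3:96293970-96294219, minus strand: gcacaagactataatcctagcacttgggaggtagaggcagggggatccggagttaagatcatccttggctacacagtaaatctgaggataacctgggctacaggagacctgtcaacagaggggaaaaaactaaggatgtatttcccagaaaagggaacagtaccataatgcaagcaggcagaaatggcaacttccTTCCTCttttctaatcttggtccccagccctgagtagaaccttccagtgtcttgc
Cx3cr1, chr9:120068297-120068546, minus strand: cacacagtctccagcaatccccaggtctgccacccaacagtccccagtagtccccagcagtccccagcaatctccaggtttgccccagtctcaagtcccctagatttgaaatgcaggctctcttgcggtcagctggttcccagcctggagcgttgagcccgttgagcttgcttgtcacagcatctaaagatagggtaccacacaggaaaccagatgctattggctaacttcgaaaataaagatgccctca

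The core lay 34 bases before the start in Trem2, 42 in P2ry13 and 49 in Fcgr1. RefSeq promoters were available for 26 of the 35 members, and 14 of these genes (53.8%) held GAGGAA on either strand in such a window. Over all 27025 genes with a promoter the share was 25.9%. A pattern for joint sites of PU.1 and an interferon regulatory factor (GGAA, then 2 bases of any kind, then GAAA), which can overlap the core in the letters GGAA, was found on either strand in 1 of 26 member genes, Fcgr2b (3.85%), against 2.68% of all genes. These matches describe the letters of the window and nothing about binding.

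The comparison of CV with SPF cord asks whether microglial transcripts differ in mice with dermatitis. In limma's test over all 21065 kept probes, adjusted by the Benjamini-Hochberg method, 0 of the 42 member probes passed an adjusted p of 0.05, and each had an adjusted p of 1. Over all named genes 0 of 11476 passed (0.0%). At an unadjusted p under 0.05 there were 0 of the 31 representing probes, against 3.24% of all named genes (1.85% lower and 1.39% higher in CV). Among the 42 member probes there were 2, both lower in CV, against 3.15% of all kept probes (1.7% lower and 1.45% higher). The values below are therefore a description of 4 arrays. Differences are CV minus SPF in log2 units of the normalized signal, and the value after ± is the model's standard error (n = 2 arrays in each group).

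Of the 31 genes, 27 were lower in CV cord on average (87.1%) and 4 were higher. Among all named genes 49.3% were lower. The median difference of the members was -0.25, against 0.00 over all named genes. Both CV arrays lay below both SPF arrays in 7 members (22.6%), against 15.2% of all named genes, and both lay above in 0 members, against 16.3%. In the other 24 members the groups overlapped. The 95% interval of every one of the 31 differences included 0. The median rested on single arrays: it was -0.05 without SPF replicate 1 and -0.08 without CV replicate 2, and it was -0.50 without SPF replicate 2 and -0.42 without CV replicate 1. In the authors' normalized table it was -0.08. RNA was taken from whole tissue, so fewer microglia and less RNA of these genes per cell cannot be told apart.

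**Figure D1:**
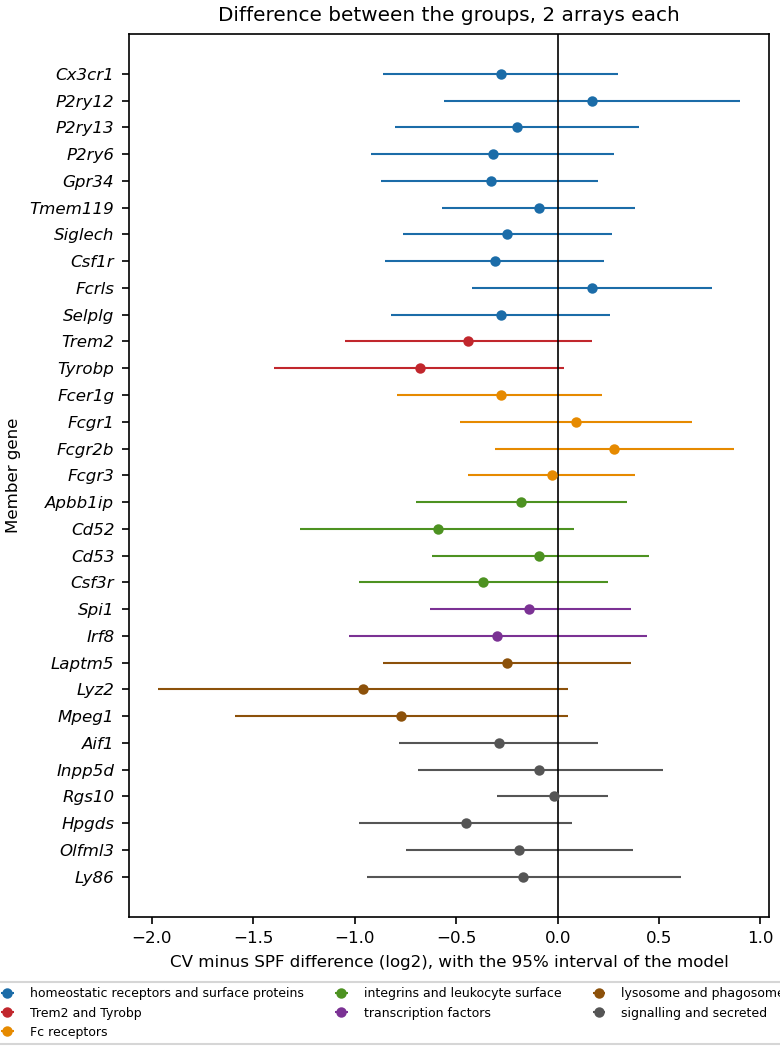
CV minus SPF difference of each of the 31 measured member genes (horizontal axis, log2), with the 95% interval of the model, coloured by role. Points left of 0 are lower in CV, which holds for 27 genes, and every interval includes 0.

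The spread between the 2 arrays of a group was wide for these genes. In 28 of 31 members (90.3%) the larger of the 2 gaps between replicates exceeded the difference between group means, against 79.4% of all named genes. The gap ran the same way in both groups for most members. CV replicate 1 was above CV replicate 2 in 28 of 31 members (90.3%), by a median of 0.33, against 50.1% of all named genes. SPF replicate 1 was above SPF replicate 2 in 27 of 31 (87.1%), by a median of 0.36, against 49.1%. CV replicate 2 was the lowest array in 23 members (74.2%, against 25.5% of all named genes) and SPF replicate 1 the highest in 23 (74.2%, against 27.5%). The full order SPF replicate 1, CV replicate 1, SPF replicate 2, CV replicate 2, which was picked out after the values were seen, held in 13 members (41.9%) and in 7.01% of all named genes.

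**Figure D2:**
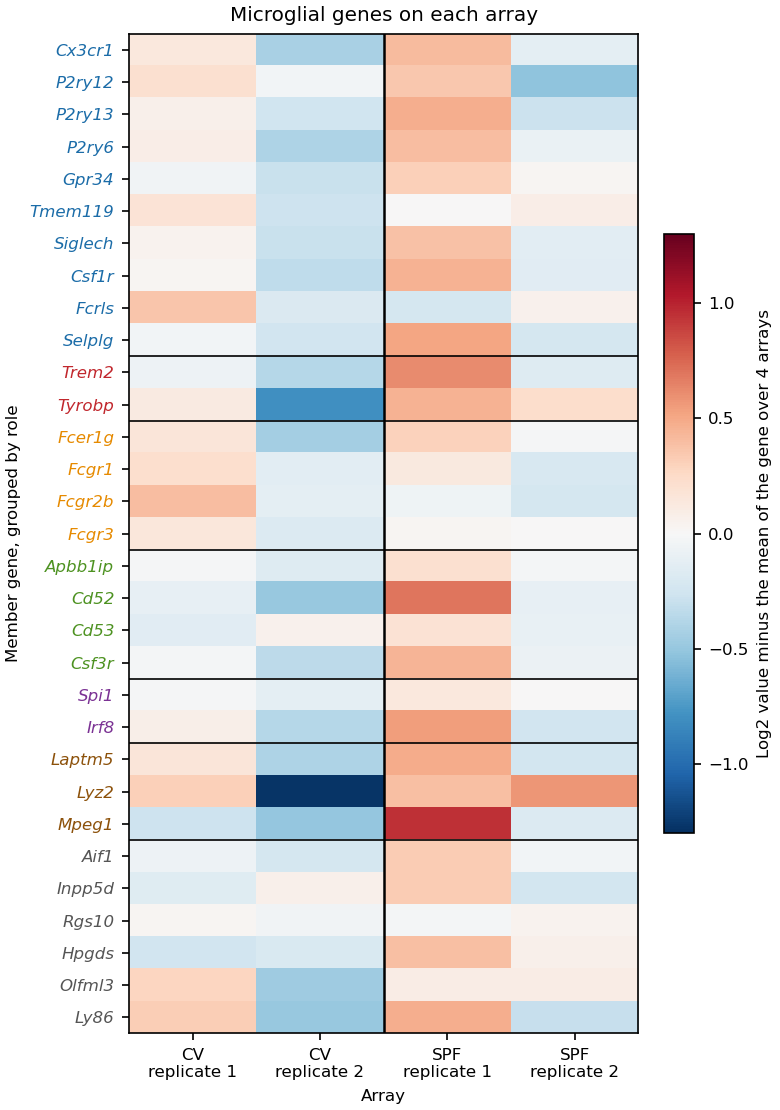
Log2 value of each member gene on each array (columns) minus the mean of that gene over the 4 arrays, with genes in rows grouped by role between black lines. SPF replicate 1 is red in most rows and CV replicate 2 blue, while CV replicate 1 and SPF replicate 2 lie between them.

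Pairing the arrays one by one shows what this order does to the comparison. CV replicate 2 was below SPF replicate 1 in 30 of 31 members, with a median difference of -0.67, and below SPF replicate 2 in 25, with a median of -0.19. CV replicate 1 was below SPF replicate 1 in 24 members, with a median of -0.33. Set against SPF replicate 2, CV replicate 1 was lower in 9 of 31 (29.0%, against 50.2% of all named genes), and the median was 0.14. So 3 of the 4 pairs had a negative median and 1 a positive one.

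**Figure D3:**
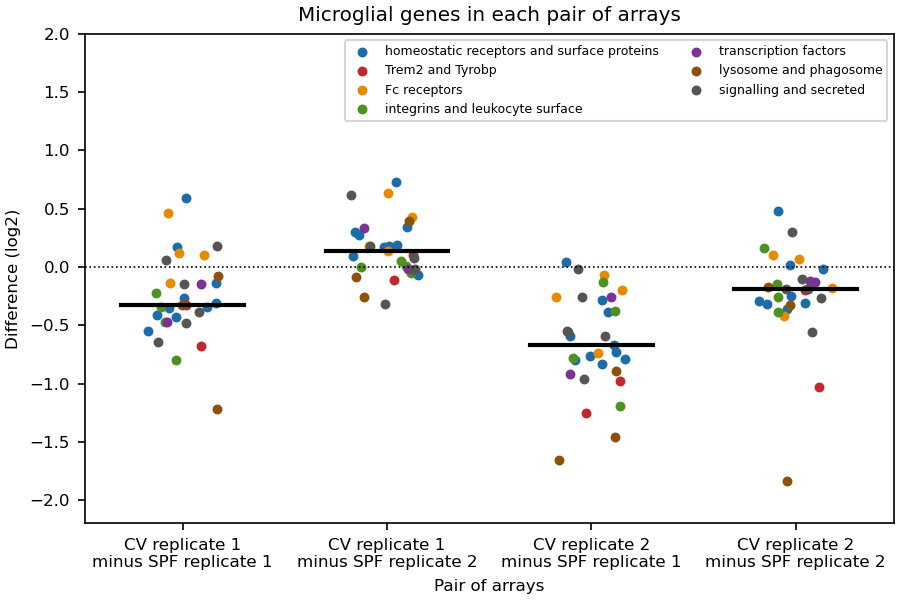
Difference of each member gene in each of the 4 pairs of a CV and an SPF array (log2), coloured by role, with a black bar at the median of the 31 genes. The medians are -0.33, 0.14, -0.67 and -0.19 from left to right.

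The homeostatic receptors and surface proteins comprised 10 genes, all measured, of which 8 were lower in CV and 0 passed the test. Their median difference was -0.26, and it was 0.00 without SPF replicate 1, -0.06 without CV replicate 2, -0.53 without SPF replicate 2 and -0.40 without CV replicate 1. Cx3cr1, the fractalkine receptor gene, had normalized log2 values of 8.77 and 8.21 on CV replicates 1 and 2, against 9.04 and 8.50 on SPF replicates 1 and 2. Its groups overlapped, the gap within each group was as wide as 0.55 and 0.54, and the difference was -0.28 ± 0.25. Csf1r, the receptor gene for the survival factor CSF1, stood at 8.80 and 8.44 in CV, against 9.23 and 8.63 in SPF. It differed by -0.31 ± 0.23 with overlapping groups, and a further, dimmer probe of Csf1r gave 0.10 ± 0.42.

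Among the purine receptors P2ry13, which responds to ADP, had 8.64 and 8.32 in CV, against 9.05 and 8.30 in SPF, a difference of -0.20 ± 0.26. P2ry6, the receptor gene for UDP that is tied to phagocytosis, had 7.28 and 6.79 in CV, against 7.59 and 7.11 in SPF, a difference of -0.32 ± 0.26. In both genes the groups overlapped, and SPF replicate 1 was the highest array. P2ry12, the ADP receptor gene that guides microglial processes, had 6.50 and 6.25 in CV, against 6.64 and 5.77 in SPF. Its groups overlapped too, its highest array was SPF replicate 1 and its lowest SPF replicate 2, as for P2ry13. Only the sign of its difference was other, 0.17 ± 0.31, which is smaller than its standard error. Gpr34, a receptor gene for lysophosphatidylserine, was the member of this group in which both CV arrays (6.27 and 6.03) lay below both SPF arrays (6.62 and 6.34), a difference of -0.33 ± 0.23. The further probe of Gpr34 gave -0.11 ± 0.30 and overlapped.

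Siglech, a sialic acid-binding lectin gene, differed by -0.25 ± 0.22 (8.37 and 8.04 in CV, against 8.71 and 8.19 in SPF), and Selplg, the P-selectin ligand gene, by -0.28 ± 0.23 (9.88 and 9.67 in CV, against 10.43 and 9.69 in SPF). Both followed the common order, with SPF replicate 1 on top. Their further kept probes gave -0.11 ± 0.39 for Siglech and -0.08 ± 0.27 for Selplg. Tmem119, a membrane protein gene used to tell microglia from blood-derived macrophages, did not: it had 8.12 and 7.67 in CV, against 7.95 and 8.03 in SPF, and differed by -0.09 ± 0.20. Fcrls, an Fc receptor-like gene of mouse microglia, had 7.26 and 6.71 in CV, against 6.67 and 6.96 in SPF, with SPF replicate 1 the lowest array. Its difference was 0.17 ± 0.25, and its further probe gave 0.50 ± 0.36. In Tmem119 and Fcrls CV replicate 1 was the highest array.

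Trem2 and Tyrobp, receptor and adaptor of one complex, were both lower in CV on average, with differences of -0.44 ± 0.26 and -0.68 ± 0.31, and neither passed the test. Trem2 had 8.46 and 8.16 in CV, against 9.14 and 8.36 in SPF. Here CV replicate 1 exceeded SPF replicate 2, and the high value was SPF replicate 1. Without that array the Trem2 difference was -0.05, and without SPF replicate 2 it was -0.83. Tyrobp had 7.45 and 6.53 in CV, against 7.78 and 7.56 in SPF, so both CV arrays lay below both SPF arrays. The low value was CV replicate 2, and without it the Tyrobp difference was -0.22, while without CV replicate 1 it was -1.15. The 2 partners thus drew their differences from different arrays. In the authors' normalized table Trem2 differed by -0.28 and Tyrobp by -0.25.

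The 4 Fc receptor genes had a median difference of 0.03, with 2 lower and 2 higher in CV. The 2 higher ones, Fcgr1 and Fcgr2b, were dim, each with a detection p of 0.0139 on SPF replicate 2. Fcer1g, the adaptor gene for activating Fc receptors, had 9.88 and 9.28 in CV, against 10.02 and 9.70 in SPF, and differed by -0.28 ± 0.22 with overlapping groups. Fcgr3, a low-affinity activating receptor gene, had 8.41 and 8.09 in CV, against 8.29 and 8.27 in SPF, a difference of -0.03 ± 0.18. Fcgr1, the high-affinity receptor gene, had 5.81 and 5.45 in CV, against 5.71 and 5.38 in SPF, a difference of 0.09 ± 0.24. In these receptor genes the arrays of the 2 groups interleaved. Fcgr2b, the inhibitory receptor gene, had 6.06 and 5.53 in CV, against 5.60 and 5.43 in SPF, a difference of 0.28 ± 0.25. A further probe of Fcgr2b went the other way: it was not above background on either CV array, it measured 4.91 and 4.76 there, against 5.41 and 5.13 in SPF, and it was at least 1.17-fold lower in CV, with an adjusted p of 1. That fold sets the SPF mean against the lowest signal above background, or the value of the probe where that was higher. That fold carries no sampling error. The probe was kept only through the SPF arrays, so the filter favoured a lower value in CV. Fcgr2b and Fcgr3 are close in sequence, so the share of each in a probe's signal is uncertain.

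Side by side, Trem2, Tyrobp and the 4 Fc receptor genes had a median difference of -0.16 and the homeostatic group one of -0.26, and the difference between these medians was not tested. CV replicate 1 was above CV replicate 2 in 6 of 6 and in 10 of 10 of these genes. The first group's median was 0.07 without CV replicate 2, -0.03 without SPF replicate 1, -0.39 without CV replicate 1 and -0.26 without SPF replicate 2. With a detection p under 0.01 required on all arrays, the dim Fcgr1 and Fcgr2b left the first group. Its median was then -0.36, against -0.26 in the homeostatic group, so the order of the 2 medians turned. CV replicate 1 was the highest array in 3 of the 4 Fc receptor genes, and in 0 of the pair Trem2 and Tyrobp.

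**Figure D4:**
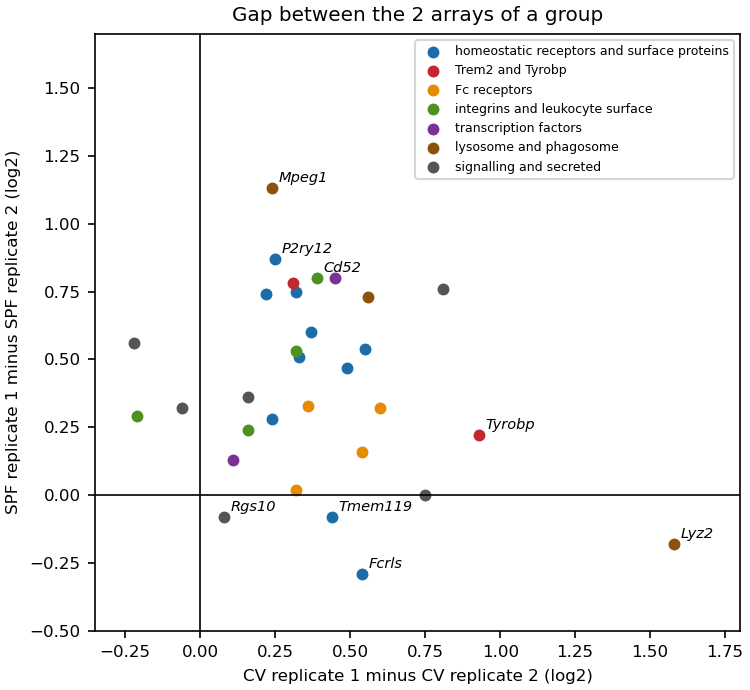
Gap between the 2 arrays of the CV group (horizontal axis, log2) against the gap between the 2 arrays of the SPF group (vertical axis, log2), 1 point per member gene, coloured by role. Most points lie above and right of 0, where replicate 1 is higher in both groups, and Lyz2 stands apart with a CV gap of 1.58 and an SPF gap of -0.18.

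Integrin and other leukocyte surface genes were the least well covered. Itgam and Itgb2, which encode the 2 chains of complement receptor CR3, and Ptprc, the pan-leukocyte gene for CD45, were not above background on any array (1, 1 and 4 probes). The lowest detection p was 0.362 for Itgam, 0.171 for Itgb2 and 0.122 for Ptprc, so these probes give no level for genes that microglia are known to express. Of the 4 measured genes of this group all were lower in CV, and 0 passed. Cd52, a small surface glycoprotein gene of leukocytes, had 7.52 and 7.13 in CV, against 8.32 and 7.52 in SPF, and differed by -0.59 ± 0.29. CV replicate 1 and SPF replicate 2 were level, and SPF replicate 1 stood above them: without it the Cd52 difference was -0.19.

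Csf3r, the G-CSF receptor gene, which neutrophils also express, differed by -0.37 ± 0.26 (5.98 and 5.67 in CV, against 6.45 and 5.93 in SPF) and Cd53, a tetraspanin gene, by -0.09 ± 0.23 (5.66 and 5.87 in CV, against 6.0 and 5.71 in SPF). Cd53, Hpgds and Inpp5d were the 3 members with CV replicate 2 above CV replicate 1. Apbb1ip, which encodes the integrin-activating Rap1 effector RIAM, had 3 kept probes, all lower in CV. The representing probe differed by -0.18 ± 0.22 and overlapped. Another probe of Apbb1ip had 5.32 and 5.44 in CV, against 6.02 and 5.96 in SPF, a difference of -0.61 ± 0.21 with an unadjusted p of 0.0217 and an adjusted p of 1. The remaining probe, above background on 1 of 2 SPF arrays, gave -0.26 ± 0.33.

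The transcription factor genes were dim. Spi1 had 5.38 and 5.27 in CV, against 5.53 and 5.40 in SPF, with no overlap by a narrow margin, and differed by -0.14 ± 0.21. Irf8, which works with PU.1 in microglia, had 5.42 and 4.97 in CV, against 5.89 and 5.09 in SPF, a difference of -0.30 ± 0.31, and was above background on 1 of 2 CV arrays. A low value of these genes lies near the background, where the offset of 16 added before log2 compresses differences.

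The lysosomal and phagosomal members held the 2 differences of greatest size among the 31 genes. Lyz2, the lysozyme gene of macrophages, granulocytes and microglia, had 9.26 and 7.68 in CV, against 9.34 and 9.52 in SPF, and differed by -0.96 ± 0.43 (1.94-fold lower). CV replicate 1 was level with the SPF arrays, and the difference lay on CV replicate 2: it was -0.17 without that array and -1.75 without CV replicate 1. A further probe of Lyz2 gave 5.98 and 4.90 in CV, against 6.07 and 6.64 in SPF, a difference of -0.91 ± 0.38 with an unadjusted p of 0.0438 and an adjusted p of 1. This probe was not above background on CV replicate 2, the array with the low value. Lyz2 has a close paralogue, Lyz1, and the files do not show whether these probes separate them.

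Mpeg1, a pore-forming protein gene of phagocytes, had 7.0 and 6.76 in CV, against 8.22 and 7.09 in SPF, and differed by -0.77 ± 0.35 (1.71-fold lower). In this gene the difference lay on SPF replicate 1, and it was -0.21 without it. Lyz2 and Mpeg1 each had both CV arrays below both SPF arrays, yet the arrays that carried the difference were not the same. Laptm5, a lysosomal membrane protein gene and a bright microglial transcript, had 11.15 and 10.59 in CV, against 11.48 and 10.76 in SPF. It followed the common order and differed by -0.25 ± 0.26, with a value of 0.11 without SPF replicate 1.

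Of the signalling and secreted members, 6 of 6 were lower in CV and 0 passed. Aif1, the gene for the microglial stain IBA1, had 7.34 and 7.18 in CV, against 7.73 and 7.37 in SPF, a difference of -0.29 ± 0.21 with no overlap. Its margin between CV replicate 1 and SPF replicate 2 was narrow, and a further probe of Aif1 gave 0.09 ± 0.25. Hpgds, the gene for hematopoietic prostaglandin D synthase, had 5.46 and 5.51 in CV, against 6.10 and 5.78 in SPF, a difference of -0.45 ± 0.23 with no overlap, while its further probe, above background on 1 array of each group, gave 0.15 ± 0.25. Ly86, which encodes MD-1, differed by -0.17 ± 0.33 (8.07 and 7.26 in CV, against 8.22 and 7.45 in SPF), with a wide gap within each group.

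Olfml3, a secreted protein gene of resident microglia, had 9.08 and 8.34 in CV, against 8.90 and 8.90 in SPF, so the SPF arrays were level and the CV arrays lay on either side of them. It differed by -0.19 ± 0.24. Inpp5d, the gene for the lipid phosphatase SHIP1, which limits signalling from activating receptors, differed by -0.09 ± 0.26. Rgs10, a regulator of G protein signalling that neurons also express, was the steadiest member, with 10.79 and 10.71 in CV, against 10.73 and 10.81 in SPF, and a difference of -0.02 ± 0.12. Its 95% interval, from -0.30 to 0.25, was the narrowest of the 31 genes. In 4 members (Csf1r, Aif1, Hpgds and Fcgr2b) the kept probes of 1 gene differed in sign, so each value belongs to its probe. For Fcgr2b the probe lower in CV was kept only through the SPF arrays.

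The ligands of these receptors and the partners of their adaptors showed no call either. Of 6 measured ligand genes, 4 were lower in CV and 0 passed (median difference -0.08). Both CV arrays lay below both SPF arrays in 1 ligand gene and in 1 partner gene, shares of 16.7% and 20.0% of lists this small, near the 15.2% of all named genes. The ligand gene was Csf3, which encodes G-CSF, with 5.08 and 5.12 in CV, against 5.33 and 5.39 in SPF, a difference of -0.26 ± 0.21. Of 11 listed partners of the adaptors, 5 were measured, 4 of them lower in CV and 0 past the test (median -0.04). Pik3cg, a phosphoinositide kinase gene of leukocytes, was the partner (6.04 and 5.90 in CV, against 6.09 and 6.04 in SPF), and CV replicate 1 and SPF replicate 2 were equal at these digits. It differed by -0.09 ± 0.21.

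Of 30 further genes of microglial identity, 22 were measured, of which 15 were lower in CV and 0 passed. Their median difference was -0.07. Cd33, a sialic acid-binding inhibitory receptor gene, was not above background on either CV array (4.87 and 4.95), against 5.59 and 5.76 in SPF. Its probe was kept only through the SPF arrays, so the filter favoured a lower value in CV. With the CV values set as for Fcgr2b, the SPF mean was 1.56-fold higher, a value without sampling error. Its unadjusted p in limma's test was 0.00727 (adjusted p of 1), which after this filter cannot be read as support for a difference. Cd84, a leukocyte adhesion gene, had 5.50 and 5.50 in CV, against 6.26 and 5.70 in SPF, a difference of -0.47 ± 0.25. In both genes the CV arrays lay below the SPF arrays, as in 5 of the 22 (22.7%, against 15.2% of all named genes). At an unadjusted p under 0.05 in limma's test there were 2 of the 22, against 3.24% of all named genes. Besides Cd33 this was Tgfbr1, above background on every array, with 10.62 and 10.38 in CV, against 10.90 and 10.84 in SPF. Tgfbr1 differed by -0.37 ± 0.13 (unadjusted p of 0.023) and did not pass the adjusted threshold. CV replicate 2 was the lowest array in 10 of these 22 genes (45.5%, against 25.5% of all named genes) and SPF replicate 1 the highest in 11, against 27.5% of all named genes.

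Genes that microglia induce in disease models, only some of them downstream of TREM2 in mouse studies, had 13 measured members of 18 listed. Of these 10 were lower in CV and 0 passed the test, with a median of -0.18. Csf2ra, a GM-CSF receptor gene, had 7.66 and 7.74 in CV, against 7.95 and 7.91 in SPF, a difference of -0.23 ± 0.17. Axl, a receptor tyrosine kinase gene for phagocytosis, had 10.82 and 10.53 in CV, against 10.83 and 10.87 in SPF, a difference of -0.18 ± 0.14. These were the 2 genes of that list with both CV arrays below both SPF arrays (15.4%), a share near the 15.2% of all named genes. SPF replicate 1 was the highest array in 10 of the 13 (76.9%, against 27.5%).

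Other cells differed between the same arrays. The summed level of a list is the sum, over its genes, of the normalized signal of the brightest probe on a linear scale with the offset removed. For the 34 microglial genes it was 11051.4 and 8107.6 on the CV arrays, against 13226.2 and 9859.5 on the SPF arrays. Border macrophage genes had 886.4 and 544.8 in CV, against 666.9 and 1095.7 in SPF, with 7 and 4 of 10 above background in CV, against 6 and 8 in SPF, and Ms4a7 and Ms4a6c on none. Their highest array was thus SPF replicate 2, as for Lyz2, and not SPF replicate 1. Meningeal fibroblast genes had 8147.3 and 2442.0 in CV, against 5149.1 and 24381.5 in SPF, with 9 and 7 of 10 above background in CV, against 8 and 9 in SPF.

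Neutrophil genes had 3780.3 and 886.6 in CV, against 1284.6 and 1054.9 in SPF, with 9 of 11 above background on each array and Mmp8 and Cxcr2 on none. Monocyte genes had 160.9 and 51.7 in CV, against 68.2 and 73.7 in SPF, with 2 and 0 of 5 above background in CV, against 2 and 2 in SPF, and the defining gene Ccr2 on none. Of 4 B cell genes 0 were above background on any array, and of 8 T and NK cell genes 1 or 0 were. Mast cell genes had 939.7 and 547.3 in CV, against 967.1 and 729.9 in SPF, with 1 and 2 of 5 above background in CV, against 2 and 2 in SPF. That sum was nearly all Kit, which other cells of the cord also express (log2 9.85 and 9.02 in CV, against 9.89 and 9.43 in SPF), and the proteases Mcpt4 and Tpsb2 were on no array above background. The neutrophil sum was lowest on CV replicate 2, as was the microglial sum. The same held for the border macrophage, meningeal fibroblast, monocyte, mast cell, red blood cell and muscle sums. It did not hold for the B cell, T and NK cell or neuronal and glial sums.

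Red blood cell genes had 21109.2 and 12981.7 in CV, against 43041.4 and 29461.4 in SPF, with 5 of 6 above background on each array. Skeletal muscle genes had 448.9 and 227.2 in CV, against 1296.3 and 346.5 in SPF, with 4 and 2 of 6 above background in CV, against 5 and 5 in SPF. Both were highest on SPF replicate 1 and lowest on CV replicate 2, which are also the highest and lowest arrays of most microglial genes. The red blood cell sum was higher on SPF replicate 2 than on CV replicate 1, so its groups did not overlap. For the microglial and muscle sums CV replicate 1 was above SPF replicate 2. Neuronal and glial genes of the cord had 67156.9 and 55809.3 in CV, against 63085.3 and 54747.1 in SPF. On each array 5 of 8 were above background, the cervical gene Hoxa5 and the motor neuron gene Chat among them. Snap25, Slc6a5 and Hoxc5 were above background on no array. Most of the sum was the glial genes Mbp and Gfap, so it says little about neurons. The part of these lists in the microglial differences was not tested.

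**Figure D5:**
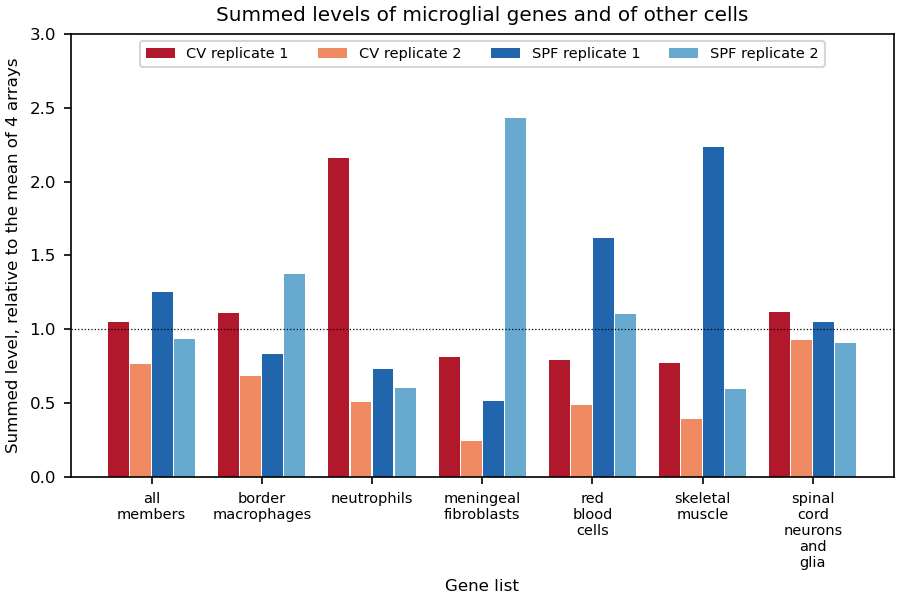
Summed level of each gene list on each array (vertical axis), divided by the mean of the 4 arrays, with CV arrays in red and SPF arrays in blue. Microglial genes, red blood cell genes and muscle genes are highest on SPF replicate 1, meningeal genes on SPF replicate 2 and neutrophil genes on CV replicate 1.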

How the data were processed

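RNA from 4 cord samples was measured on Illumina BeadChips. Per the labels' protocols, RNA was extracted with TRIsure and turned into biotinylated cRNA. The deposited signal of each probe is a linear intensity, not normalized, and per the file headers every signal has its own detection p-value. A second table by the authors, tried as an alternative, holds normalized intensity; the submitters' processing notes name lumi, and the sources used here do not give its settings.

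Background correction and quantile normalization used neqc in limma 3.58.1 (R 4.3.3), with the controls inferred from the detection p-values and an offset of 16 before log2. Symbols came from the annotation of the array platform: 34885 probes have 1 symbol, 18 several and 10378 none. Probes with a detection p under 0.05 on at least 2 arrays were kept (21065 probes, 11476 named genes). Groups, taken from the sample titles, were compared by limma's two-sided test (lmFit, eBayes with trend); p-values were adjusted by Benjamini-Hochberg over every kept probe, at a threshold of 0.05. The fit was also run on simulated arrays, with independent noise for each probe, and the outcome is not given here. Such noise does not model genes that move together across arrays. Lists are described by counts and medians and have no test. The number of arrays limits the precision, and the files give no slide or scan date.

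The members, the lists and the alternatives were chosen with earlier results of these data known. All 35 members are named, each with its kept probes. Of the lists of ligands, adaptor partners and other microglial genes, those past the threshold are named. So are the 2 with the largest absolute difference among genes without overlap. Tgfbr1 is named in addition, for its unadjusted p. Alternatives covered background correction, 2 normalizations between arrays, the offset, the authors' table, 2 filters, the variance model, several probes of a gene, the replicate number as a block and each array left out.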

Additional observations from a re-analysis of the deposited data

How the results depend on the processing

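With 2 arrays per group, 0 member probes passed the adjusted threshold of limma's test under any alternative run, and the lowest adjusted p of a member was 0.114, without CV replicate 1. Over all kept probes 0 passed, except 14 with the replicate block and 2 without CV replicate 2. The replicate block moved no member across the threshold (lowest adjusted p 0.521). The labels do not say that same-numbered arrays share anything, and the deviations of same-numbered arrays from their group means correlated at 0.217 over all kept probes. The count of members lower in CV was 27 of 31 under the other normalizations, the other offset, no background correction and the authors' table, 28 of 34 without a filter on dim probes, 24 of 26 with a detection p under 0.01 on all arrays and 28 of 31 with the mean of the probes of each gene. It ranged from 19 to 28 with 1 array left out, lowest without SPF replicate 1. The median difference of the members was between -0.32 (no normalization between arrays) and -0.08 (authors' table) with all 4 arrays, and between -0.50 and -0.05 with 1 array left out. The median of all named genes moved by at most 0.05. The homeostatic group's median ranged from -0.53 to 0.00 and that of Trem2, Tyrobp and the Fc receptors from -0.39 to 0.07 with 1 array left out. With all 4 arrays they lay between -0.32 and -0.12, and between -0.36 (the stricter filter, 4 genes) and -0.12. With the mean of its probes Fcgr2b turned to -0.08, since its probes differ in sign. The Fcgr2b probe lower in CV was kept only through the SPF arrays. With 1 array left out, 16 further genes changed sign in at least 1 fit, with ranges of Cd53 from -0.23 to 0.06, Fcer1g from -0.58 to 0.02, Fcgr1 from -0.09 to 0.27, Fcgr3 from -0.19 to 0.13, Fcrls from -0.10 to 0.44, Inpp5d from -0.36 to 0.19, Irf8 from -0.70 to 0.11, Laptm5 from -0.61 to 0.11, Ly86 from -0.57 to 0.24, Olfml3 from -0.56 to 0.18, P2ry12 from -0.26 to 0.60, P2ry13 from -0.58 to 0.17, Rgs10 from -0.06 to 0.02, Selplg from -0.65 to 0.09, Siglech from -0.50 to 0.01 and Tmem119 from -0.31 to 0.13. In those fits the lone array of a group is assumed to vary like the other group, and the cause of these changes was not tested.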
